A study of Homo sapiens with 12 samples.

Results

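The E2F and RB family genes were followed in RNA sequencing data of T24 cells, a line established from a human bladder cancer, made to study the small nuclear RNA U11. The members were taken by gene name from the deposited gene tables: the transcription factor genes E2F1 to E2F8 and the pocket protein genes RB1 and RBL1. All 10 were found once, among 60504 listed genes, and all 10 passed the filter on low values (1 TPM or more in at least 2 libraries of a comparison) in both comparisons. TPM is a measure of transcript abundance, corrected for transcript length and scaled so that every library has the same total.

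The study made 12 libraries, all of T24 cells. The knockout comparison set 2 libraries with a U11 knockout label, from cells edited with CRISPR/Cas9 and grown from single cells, against 2 controls labelled untreated. The overexpression comparison set 6 libraries labelled U11 overexpression against 2 further controls labelled untreated. The overexpressing cells stably carried a plasmid expressing U11 and were expanded after monoclonal selection. The overexpression libraries bore the line labels 79, 86 and 87 with 2 libraries each, 1 from each of 2 library batches, and each batch also held 1 control. The batches were read from the codes at the start of the sample titles, as no label names a batch. The sources do not say what the line labels stand for. They also do not say whether libraries of one group were separate cultures, so the spread between them may be technical.

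E2F factors switch on the genes that a cell needs to copy its DNA, and RB family proteins, called pocket proteins, bind the E2Fs and hold those genes off until cyclin-dependent kinases release them. E2F1, E2F2 and E2F3 are the classical activators, E2F4 and E2F5 act mostly as repressors together with pocket proteins, E2F6 represses through Polycomb proteins without binding pocket proteins, and E2F7 and E2F8 are atypical repressors that bind DNA without a DP partner. Loss of RB1 is a common event in bladder cancer. U11 is the RNA of the minor spliceosome that pairs with the 5′ splice site of U12-type introns, a rare class that often begins with ATATCCTT or GTATCCTT and carries a branch point motif close to its end.

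The canonical E2F genes are among the genes with such an intron, so the intron ends were read from the hg38 genome. E2F1, E2F2, E2F3, E2F4, E2F5 and E2F6 each held 1 intron that began with AT, ended with AC and lay within 1 mismatch of the 8-base start motif, whereas E2F7, E2F8, RB1 and RBL1 held none among the 16, 14, 32 and 24 introns scanned. Of 402166 introns of at least 60 bases in GENCODE 44, 216 (0.0537%) in 191 genes met this definition. The first 30 bases of the intron are shown for 5 of the 6 genes because the start of this intron is the stretch that U11 pairs with, and capitals mark the 8 bases that were compared with the motif on the gene's strand:
E2F1 intron start: ATATCCTTggattggccgtagggtgtggaa
E2F2 intron start: ATATCCTCcttggttgggggaaggtgtcag
E2F3 intron start: ATATCCTTtgtgccgccagttctctggggg
E2F4 intron start: ATATCCTCctggcggtccctgctgggggga
E2F6 intron start: ATATCCTTtaagtctatacctttttaaaat
The motif was matched in full in E2F1, E2F3, E2F5 and E2F6, and with 1 mismatch in E2F2 and E2F4. The last 30 bases follow, with capitals on the 8 bases nearest to the branch point motif (TTCCTTAA or TTCCTTGA) and on the final AC:
E2F1 intron end: aaaggtcatgtgGTCCTTGActctgccaAC
E2F2 intron end: cagtcactTTTCTTGActctcctgccctAC
E2F3 intron end: ttagatggaagaTTCCTTGAcactctttAC
E2F4 intron end: ggcatcagccattCTCCTTAAccctcacAC
E2F6 intron end: tctgtgtagagATCCTTGActgagttttAC

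The branch motif was exact in E2F3 and E2F5 and had 1 mismatch in the other four. The introns lay at chr20:33677541-33678200 in E2F1 (660 bases, minus strand), chr1:23519131-23520912 in E2F2 (1782 bases, minus strand), chr6:20482921-20486688 in E2F3 (3768 bases, plus strand), chr16:67193171-67193471 in E2F4 (301 bases, plus strand) and chr2:11450127-11451650 in E2F6 (1524 bases, minus strand). Each was an intron of the canonical transcript and fell after the second base of a codon, so the interrupted codon phase was shared by all 6 genes. It was intron 4 of 6 in E2F1, E2F2, E2F3 and E2F6, intron 3 of 9 in E2F4 and intron 3 of 7 in E2F5. The gene tables hold 1 value per gene, so how often these introns were removed could not be read from them. Over all tested genes with such an intron, 11 of 144 (7.64%) were called in the knockout comparison and 2 of 150 (1.33%) in the overexpression comparison, beside 11.8% and 1.93% of all genes tested.

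**Figure D1:**
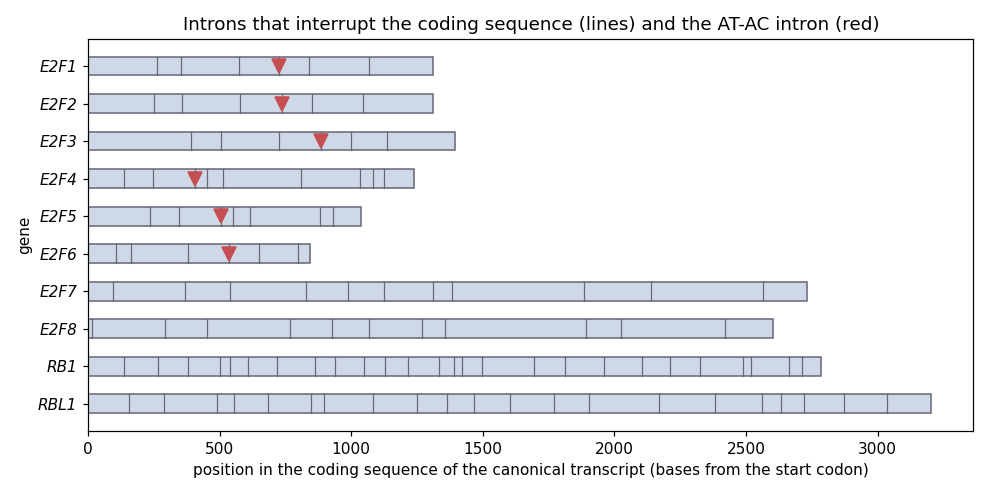
Coding sequence of the canonical transcript of each gene, in bases from the start codon on the x axis, with thin lines at the introns and a red triangle at the AT-AC intron. The triangle is present in E2F1 to E2F6, for example after 725 of 1311 coding bases in E2F1 and after 407 of 1239 in E2F4, and absent from E2F7, E2F8, RB1 and RBL1.

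The libraries held 9.07 to 15.33 aligned gigabases, as read from the ratio of coverage to FPKM. U11, summed over its gene entries, had 21.4 and 23.8 TPM in the knockout controls but 31.6 and 37.4 TPM in the libraries bearing the knockout label. These values go against that label, so the libraries bearing it are called labelled knockouts throughout. By quantitative PCR the study found U11 lower in its knockout cells and higher in its overexpressing cells than in wild-type cells. How well these libraries capture a short RNA such as U11 was not tested. Among the overexpression libraries U11 had 0.183 and 0.412 TPM in line label 79, 3.98 and 3.72 TPM in 86, and 61.9 and 53.6 TPM in 87, beside 0.033 and 0.623 TPM in their controls. Line label 79 thus lay within the range of the controls, against its overexpression label, and what rests on it is given with and without it. In the knockout comparison protein-coding genes held 44.0% to 47.1% of all TPM, against 94.2% to 94.9% in the overexpression comparison, so levels were compared within a comparison only. All 4 epithelial keratins tested reached 1 TPM in every library. Of 8 urothelial markers, GATA3, PPARG and FOXA1 did so, while the uroplakin genes and KRT20 stayed under 1 TPM throughout. In bulk RNA, fewer cells of a kind and less RNA per cell cannot be told apart.

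The members differed in level far more than they differed between groups. In the 8 libraries of the overexpression comparison, E2F4 was the highest by TPM (95.5 to 123.7, median 107 TPM), ahead of E2F1 (72.1 to 80.5 TPM) and RB1 (57.4 to 89.5 TPM), whose ranges overlapped. E2F7 (51.8 to 67.1 TPM) also overlapped RB1 and stood above RBL1 (24.7 to 32.1 TPM) and E2F3 (23.9 to 27.0 TPM), which overlapped each other. The lowest were E2F2 (7.53 to 11.5 TPM) and E2F5 (5.13 to 9.39 TPM), again with overlapping ranges. The 4 libraries of the knockout comparison also had E2F4 first (40.4 to 48.4 TPM) and E2F5 last (2.59 to 3.22 TPM).

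This order depended on the deposited column. TPM divides by an effective transcript length, while the coverage column gives the mean depth per base of all annotated exons. The coverage of E2F1 equalled the depth implied by its FPKM (100% in every library), whereas that of E2F3 reached 5.5% to 5.7% of it, that of E2F5 10.5% to 13.9% and that of RB1 33.9% to 34.4%. By coverage per aligned gigabase, E2F1 was first in the overexpression comparison (28.4 to 32.1), E2F4 second (21.9 to 26.3) and E2F3 ninth (0.545 to 0.618).

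**Figure D2:**
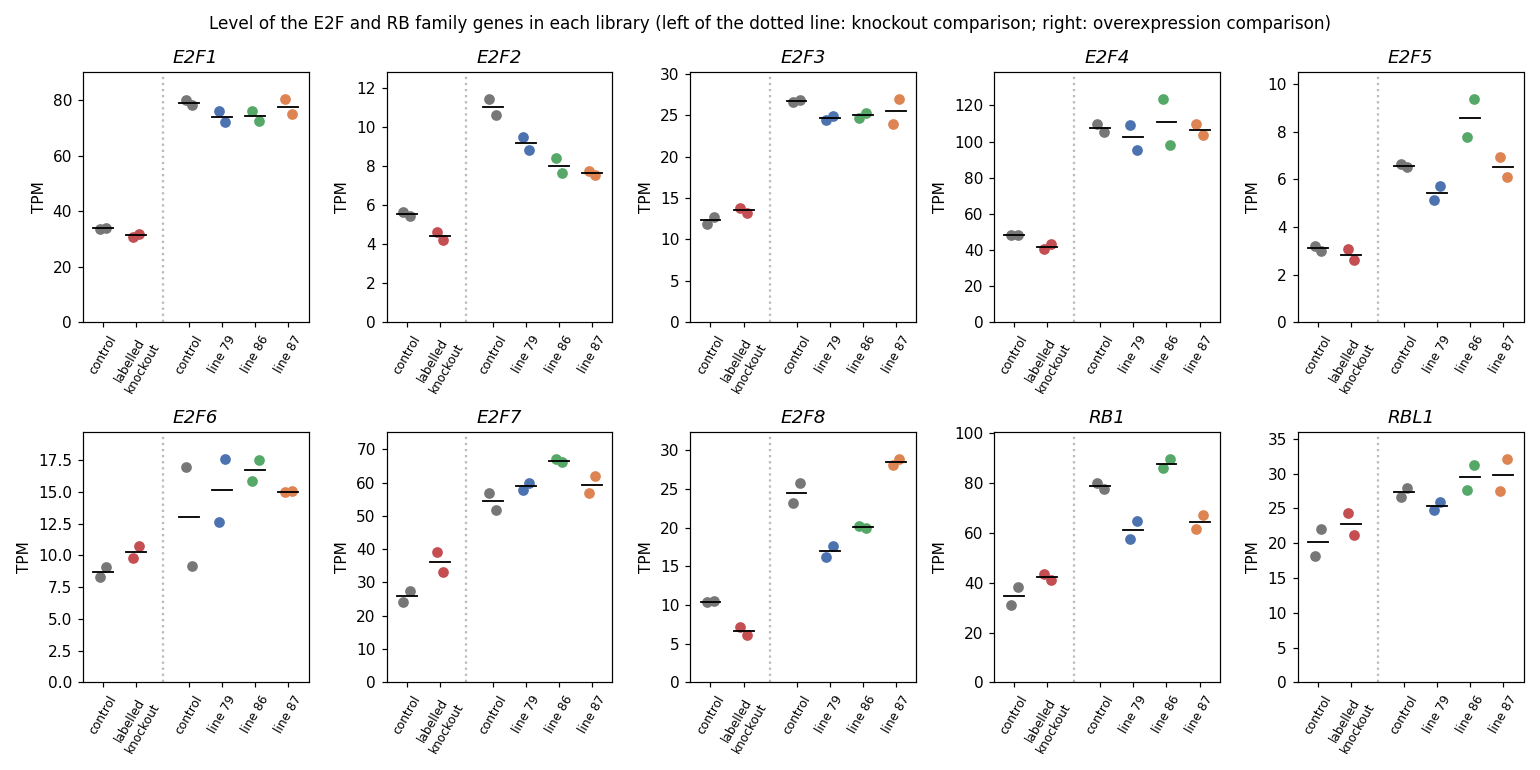
TPM of each gene (y axis, from 0) in each of the 12 libraries, as 1 point per library and a black bar at the group mean, with the knockout comparison left of the dotted line. E2F8 stands at 6.08 and 7.14 TPM in the labelled knockouts against 10.3 and 10.5 TPM in their controls, and it differs between the line labels (16.9, 20.1 and 28.5 TPM on average).

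The knockout comparison asked which genes differ in level when U11 is targeted. E2F8, an atypical repressor, was the only member that passed the thresholds used by the study (unadjusted P under 0.05, fold of 1.5 or more), and it fell. E2F7, its closest relative, was higher rather than lower but did not reach the fold threshold. The remaining 8 members stayed within 1.25-fold of their controls on the TPM scale. So 1 of the 10 members was called, beside 11.8% of all 14356 genes tested and 3.15% of them called lower. The median log2 difference of the members was 0.01, against 0.11 over all genes tested. For 8 of the 10 the controls and labelled knockouts held separate ranges, which was also common among all genes (60.2%).

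E2F8 (ENSG00000129173, chr11:19224063-19241620, minus strand) measured 10.3 and 10.5 TPM in controls, and 7.14 and 6.08 TPM in labelled knockouts. Both of the latter were below both controls. The mean was 10.4 ± 0.143 TPM in the controls and 6.61 ± 0.747 TPM in the labelled knockouts (SD, n = 2 each), a fold of 1.58. On the log2(TPM + 1) scale, which understates the change of low genes, the difference was -0.59 (SE 0.13), with a Benjamini-Hochberg adjusted P of 0.0605 in limma. The call was lost without knockout control replicate 2 (-0.58) and without labelled knockout replicate 2 (-0.49), where the difference fell short of the fold threshold.

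E2F7 (ENSG00000165891, chr12:77021247-77065580, minus strand) measured 24.2 and 27.5 TPM in controls, and 39.0 and 33.1 TPM in labelled knockouts. Both of the latter were above both controls. The fold was 1.39 and the log2 difference 0.46 (SE 0.13, adjusted P = 0.0981, limma). E2F7 and E2F8 share a role, the repression of DNA replication genes late in S phase, yet in this comparison their values lay on opposite sides of the controls.

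Among the activators, E2F1 (ENSG00000101412, chr20:33675683-33686404), the prototype of the family, measured 33.6 and 33.9 TPM in controls, and 30.8 and 31.8 TPM in labelled knockouts. The groups did not overlap, but the log2 difference of -0.11 had a 95% confidence interval from -0.34 to 0.13. E2F2 (ENSG00000007968, chr1:23506430-23531220), an activator that is itself an E2F target, measured 5.64 and 5.45 TPM against 4.62 and 4.23 TPM, with the labelled knockouts lower (log2 difference -0.27, interval -0.58 to 0.04). E2F3 (ENSG00000112242, chr6:20401906-20493715), an activator that is often amplified in bladder cancer, measured 11.9 and 12.7 TPM against 13.8 and 13.2 TPM, with the labelled knockouts higher. Its log2 difference of 0.12 (interval -0.16 to 0.41) turned to -0.02 under median ratio scaling.

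Of the canonical repressors, E2F4 (ENSG00000205250, chr16:67192169-67198918), the main E2F of resting cells, measured 48.4 and 48.1 TPM in controls, and 40.4 and 43.2 TPM in labelled knockouts. The groups did not overlap, and the log2 difference was -0.20 (adjusted P = 0.216, limma). E2F6 (ENSG00000169016, chr2:11444375-11466177), the Polycomb-linked member, measured 8.27 and 9.06 TPM against 9.78 and 10.7 TPM, with a log2 difference of 0.22 (adjusted P = 0.292, limma). E2F5 (ENSG00000133740, chr8:85177225-85217158), a partner of the pocket proteins, overlapped between the groups, with 3.22 and 2.99 TPM in the controls and 3.07 and 2.59 TPM in the labelled knockouts. E2F5 overlaps C8orf59 on the opposite strand, which held 43.1 to 121.3 TPM, and whether reads of one were counted for the other was not tested.

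RB1 (ENSG00000139687, chr13:48303751-48481986), the retinoblastoma tumour suppressor, measured 31.0 and 38.3 TPM in controls, and 43.4 and 41.2 TPM in labelled knockouts. Both of the latter were higher, but the controls lay farther from each other than the labelled knockouts did, and the log2 difference was 0.29 (interval -0.06 to 0.63, adjusted P = 0.222, limma). RBL1 (ENSG00000080839, chr20:36996349-37095995), which encodes the pocket protein p107 and is itself under E2F control, overlapped between the groups, with 18.2 and 22.1 TPM against 24.3 and 21.2 TPM.

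**Figure D3:**
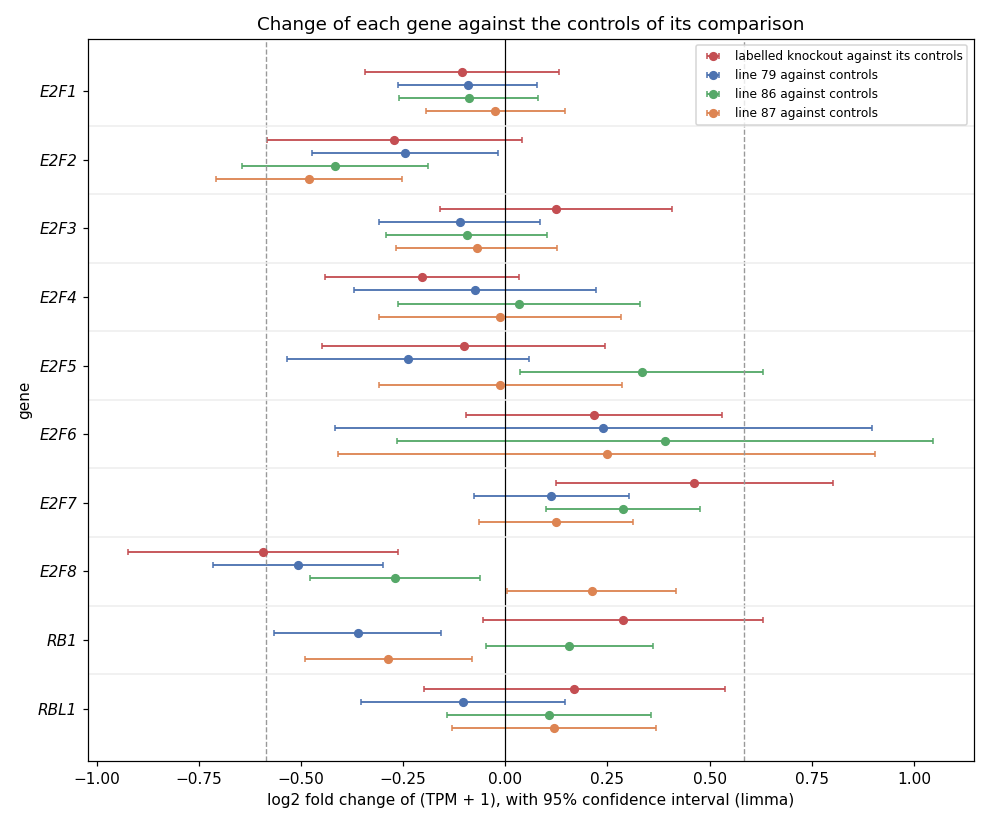
Log2 fold change of each gene on the log2(TPM + 1) scale (x axis) against the controls of its own comparison, as points with 95% confidence intervals from limma. Dashed lines mark the fold threshold of 1.5. The line labels share their 2 controls. E2F8 is the gene with the lowest value (-0.59, labelled knockout), and its 3 line labels run from -0.51 to 0.21. E2F2 lies below 0 in all 4 comparisons shown.

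The overexpression comparison asked the same question of cells labelled as overexpressing U11. None of the 10 members was called in limma, beside 1.93% of all 15768 genes tested, and 1 of them, E2F2, had an unadjusted P under 0.05, beside 6.0% of all genes. E2F2 was also the only member whose 6 overexpression libraries did not overlap the controls, which 9.87% of all genes did not. It measured 11.5 and 10.6 TPM in controls, and 7.53 to 9.47 TPM (median 8.07 TPM) in the overexpression libraries. All 6 were lower than both controls. The fold was 1.34 and the log2 difference -0.38 (SE 0.11, adjusted P = 0.541, limma), with -0.39 and -0.37 within the 2 library batches. This fit took the 6 libraries as 1 group of separate replicates, without regard to line label. Without line label 79, again none of the 10 members was called, and E2F2 had a log2 difference of -0.45 (adjusted P = 0.313, limma). The median log2 difference of the 10 members was -0.04, against -0.02 over all genes tested.

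By line label, E2F2 measured 9.47 and 8.85 TPM in line label 79, 8.42 and 7.64 TPM in line label 86, and 7.72 and 7.53 TPM in line label 87. The values of neighbouring line labels overlapped only between 86 and 87, yet the 3 line labels did not differ past the threshold (moderated F test in limma, adjusted P = 0.258). Against the controls the log2 differences were -0.25 for 79 (adjusted P = 0.177, limma) and -0.42 for 86 (adjusted P = 0.107). For 87 the difference was -0.48 (adjusted P = 0.05, just under 0.05 before rounding). None of the 3 reached the fold threshold.

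Between line labels, 1 of the 10 members was called, E2F8, beside 14.6% of all genes tested. E2F8 measured 23.2 and 25.8 TPM in controls, 16.2 and 17.7 TPM in line label 79, 20.2 and 20.0 TPM in line label 86, and 28.1 and 28.9 TPM in line label 87. Line labels 79 and 86 lay below both controls and 87 above both, and no line label overlapped another. The highest line mean was 1.68-fold the lowest, a log2 difference of 0.72 (moderated F test in limma, adjusted P = 0.00687). Without line label 79 no member was called, and E2F8 differed between 86 and 87 by 0.48 (adjusted P = 0.0439, limma), short of the fold threshold. Pooled over the line labels, the 6 libraries spanned 16.2 to 28.9 TPM around the controls, and the log2 difference was -0.19 (adjusted P = 0.931, limma), or -0.03 without line label 79 (adjusted P = 0.988).

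Against the controls E2F8 had a log2 difference of -0.51 in line label 79 (SE 0.09, adjusted P = 0.0171), -0.27 in 86 (adjusted P = 0.243) and 0.21 in 87 (adjusted P = 0.273). Within the 2 batches these were -0.50 and -0.52 for 79, -0.19 and -0.35 for 86, and 0.26 and 0.16 for 87, so the direction of each line label was the same in both batches. U11 had the order 79, 86 and 87 as well, but the controls, with U11 as low as in 79, had E2F8 between 86 and 87. A relation between the U11 and E2F8 levels was not tested, with 3 line labels.

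RB1 had another order. It measured 79.7 and 77.4 TPM in controls, 57.4 and 64.6 TPM in line label 79, 85.9 and 89.5 TPM in line label 86, and 61.4 and 67.2 TPM in line label 87. Line labels 79 and 87 overlapped each other and lay below the controls, and 86 lay above them. The largest difference between line labels was 0.52 on the log2 scale, or 1.44-fold in TPM, short of the fold threshold (moderated F test in limma, adjusted P = 0.0159), and without 79 it was 0.44 (adjusted P = 0.0413, limma). Against the controls the log2 differences were -0.36 in 79 (adjusted P = 0.0469), 0.16 in 86 (adjusted P = 0.503) and -0.29 in 87 (adjusted P = 0.141).

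E2F5 also separated the line labels, at a low level. It measured 6.63 and 6.51 TPM in controls, 5.13 and 5.73 TPM in line label 79, 7.77 and 9.39 TPM in line label 86, and 6.95 and 6.09 TPM in line label 87. No line label overlapped another, with 79 lowest and 86 highest. The line means differed by up to 1.58-fold in TPM, but on the log2(TPM + 1) scale the difference was 0.57 (adjusted P = 0.0521, moderated F test in limma), just under the fold threshold. With a pseudocount of 0.1 it was 0.65, and E2F5 was then called.

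Counted by line label against the controls, none of the 10 members was called in 79, in 86 or in 87 in limma, beside 7.95%, 3.6% and 5.13% of all genes tested. At an unadjusted P under 0.05 there were 3 members in 79 (E2F2, E2F8 and RB1), 4 in 86 (E2F2, E2F5, E2F7 and E2F8) and 3 in 87 (E2F2, E2F8 and RB1), beside 24.1%, 13.5% and 17.8% of all genes. The groups did not overlap for 8 members in 79, 7 in 86 and 3 in 87, beside 52.8%, 43.4% and 48.2% of all genes. The 3 line labels were set against the same 2 controls.

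E2F7 was not called in the overexpression comparison or in any line label. It measured 57.0 and 51.8 TPM in controls, and 56.9 to 67.1 TPM (median 60.9 TPM) in the overexpression libraries, with the highest values in line label 86 (67.1 and 66.1 TPM). The groups overlapped, and the log2 difference was 0.17 (adjusted P = 0.889, limma) for all 6 and 0.29 for 86 alone (adjusted P = 0.178). The TPM of E2F7 divided by that of E2F8, a ratio that needs no scaling between libraries and was chosen after the values were seen, was 2.34 and 2.6 in the knockout controls and 5.46 and 5.44 in the labelled knockouts. In the overexpression comparison it was 2.45 and 2.01 in the controls, 3.58 and 3.39 in 79, 3.32 and 3.3 in 86, and 2.02 and 2.14 in 87.

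E2F6 rested on 1 library. Its overexpression controls measured 17.0 and 9.14 TPM, 1.86-fold apart, and 2.13% of the 11195 genes with a control mean of at least 5 TPM were as far apart or farther. The overexpression libraries held 12.7 to 17.6 TPM (median 15.5 TPM), between the controls or just above the higher one. The log2 difference from both controls was 0.29 (adjusted P = 0.912, limma). Without control replicate 3 it was 0.71, and without control replicate 4 it was -0.12. Within the batches it was -0.22 and 0.80, so no direction can be given.

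The other members of the overexpression comparison overlapped between the groups. E2F1 measured 79.9 and 78.1 TPM in controls, and 72.1 to 80.5 TPM (median 75.5 TPM) in the overexpression libraries. E2F3 measured 26.6 and 26.8 TPM against 23.9 to 27.0 TPM, and E2F4 measured 109.8 and 105.4 TPM against 95.5 to 123.7 TPM. RBL1 measured 26.6 and 28.0 TPM against 24.7 to 32.1 TPM. Their log2 differences were -0.07 for E2F1 (95% confidence interval -0.23 to 0.10), -0.09 for E2F3 (-0.27 to 0.09), -0.02 for E2F4 (-0.25 to 0.21) and 0.04 for RBL1 (-0.22 to 0.30). These intervals leave out the fold threshold of 1.5 in either direction, but they take the 6 libraries as separate replicates, without regard to line label.

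The genes around the members were read from 8 lists of 98 genes: DP subunits with RBL2, the MuvB core with its late partners, E2F6 Polycomb partners, RB co-repressors, G1 cyclins and kinases, inhibitors of cyclin-dependent kinases, G1/S target genes of E2F, and G2/M genes bound by the DREAM complex, which joins E2F4 or E2F5, a pocket protein and MuvB. In the knockout comparison 14 of 96 tested genes (14.6%) were called, 5 higher and 9 lower, beside 11.8% of all genes. In the overexpression comparison limma called none of 96, and 6 had an unadjusted P under 0.05, beside 6.0% of all genes. Without line label 79 it called 1 gene, FOXM1 (log2 difference 0.78, adjusted P = 0.6).

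By line label, 3 of the 96 pathway genes (3.12%) were called in 79, all lower, none in 86, and 3 (3.12%) in 87, 2 higher and 1 lower, beside 7.95%, 3.6% and 5.13% of all genes. Between line labels 11 of 96 (11.5%) were called, beside 14.6% of all genes. The examples here were named after their values were seen. MCM7, a subunit of the replicative helicase, had a log2 difference of -0.71 in 79 (adjusted P = 0.00463, limma), and BUB1, a spindle checkpoint kinase, also had -0.71 (adjusted P = 0.00425). In 87, CDKN1A, the inhibitor p21, had 0.66 (adjusted P = 0.0172, limma) and FOXM1, a transcription factor that joins MuvB at G2/M genes, had 0.98 (adjusted P = 0.132). The calls of CDKN1A and FOXM1 were lost without overexpression control replicate 4 (0.56 and 0.90). FOXM1 overlaps RHNO1 and MCM7 overlaps AP4M1, each on the opposite strand.

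The G1/S targets, which encode replication proteins, lay mostly lower in the labelled knockouts. Of 37 tested, 5 (13.5%) were called lower and none higher. Of all genes, 11.8% were called in either direction and 3.15% were called lower. That lower share depended on scaling: 452 of 14356 genes were called lower here and 775 under median ratio scaling. In the list, 30 had a value below their controls, and 27 were lower without overlap between the groups, beside 20.4% of all genes. Their median log2 difference was -0.21, against 0.11 over all genes tested. Across the alternative settings that kept the thresholds, 27 to 37 of the 37 were lower and 3 to 6 were called lower. These settings include the fit with all 4 controls, which mix library types and put the median of all genes at -0.31. The list median minus the median of all genes was -0.44 to -0.23 across the settings.

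PRIM1, a subunit of the DNA primase, measured 26.1 and 26.9 TPM in controls, and 15.0 and 16.6 TPM in labelled knockouts, and it overlaps the abundant gene NACA on the same strand. GINS2, part of the replicative helicase, measured 32.0 and 32.8 TPM against 19.7 and 20.3 TPM. The licensing factor gene CDT1 (log2 difference -0.63) and the flap endonuclease gene FEN1 (-0.62), named after their values were seen, were also called lower, but not without labelled knockout replicate 2 (-0.56 and -0.58). In the overexpression comparison 27 of the 37 were lower, with a median of -0.06 against -0.02 over all genes tested. None of the 37 was called in limma, beside 1.93% of all genes. Across the alternative settings, 1 to 28 of the 37 were lower. These settings include the fit with all 4 controls, which mix library types and put the median of all genes at 0.40. The range therefore gives no direction.

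The G2/M genes were split in the knockout comparison, with 2 of 20 called higher and 1 lower, 15.0% in all beside 11.8% of all genes. TTK, a kinase of the spindle checkpoint, measured 18.9 and 29.6 TPM in controls, and 43.7 and 49.4 TPM in labelled knockouts (log2 difference 0.95, adjusted P = 0.0742, limma). Leaving out 1 library gave 0.63 for TTK without control replicate 1 to 1.26 without control replicate 2, and its call was lost without labelled knockout replicate 1 (0.86). CENPF, a centromere protein, had a log2 difference of 0.67 (adjusted P = 0.133, limma), which was 0.35 without control replicate 1 and 0.99 without control replicate 2. The call of CENPF was kept only in the latter of the 4 fits that left out 1 library. PLK1, a mitotic kinase, measured 62.3 and 63.6 TPM against 40.4 and 41.8 TPM (log2 difference -0.60, adjusted P = 0.0296, limma), and was short of the fold threshold without labelled knockout replicate 2 (-0.58). In line label 79, 17 of these 20 genes had values below the controls, with a median of -0.28 beside -0.03 over all genes tested, and 1 (5.0%) was called lower, beside 5.52% of all genes.

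Among the partners and regulators, LIN52, a subunit of the MuvB core, rose from 4.43 and 4.76 TPM in the controls to 11.5 and 11.8 TPM in the labelled knockouts (log2 difference 1.18, adjusted P = 0.016, limma). PCGF6, which joins E2F6 in a Polycomb complex, fell from 14.2 and 16.8 TPM to 7.79 and 9.84 TPM (log2 difference -0.76, adjusted P = 0.0595, limma). CDK4, which phosphorylates RB1, was called lower, with 112.7 and 125.0 TPM in the controls and 63.4 and 89.9 TPM in the labelled knockouts (log2 difference -0.65, adjusted P = 0.1, limma). This call was lost without control replicate 1 (-0.57) and without labelled knockout replicate 2 (-0.40), and the difference was -0.89 without labelled knockout replicate 1. Of 7 inhibitors of cyclin-dependent kinases 3 were called (42.9%), beside 11.8% of all genes. CDKN2D rose (log2 difference 0.74, adjusted P = 0.0363, limma) and CDKN1C fell (-0.71, adjusted P = 0.047). CDKN2B was called higher (0.63, adjusted P = 0.0913, limma), but not without control replicate 1 (0.56) or labelled knockout replicate 1 (0.45). CDKN1C and CDKN2B lay near the filter of 1 TPM. CDKN1C held 2.52 to 2.99 TPM in controls and 1.26 to 1.34 TPM in labelled knockouts, and CDKN2B 1.54 to 1.81 TPM against 2.66 to 3.69 TPM. CDKN2B overlaps an antisense gene, and whether the counting used strand is not given in the sources used here. No gene of the DP and RBL2 list (3 tested) or of the RB co-repressors (6 tested) was called in limma, with 1 of each at an unadjusted P under 0.05.

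**Figure D4:**
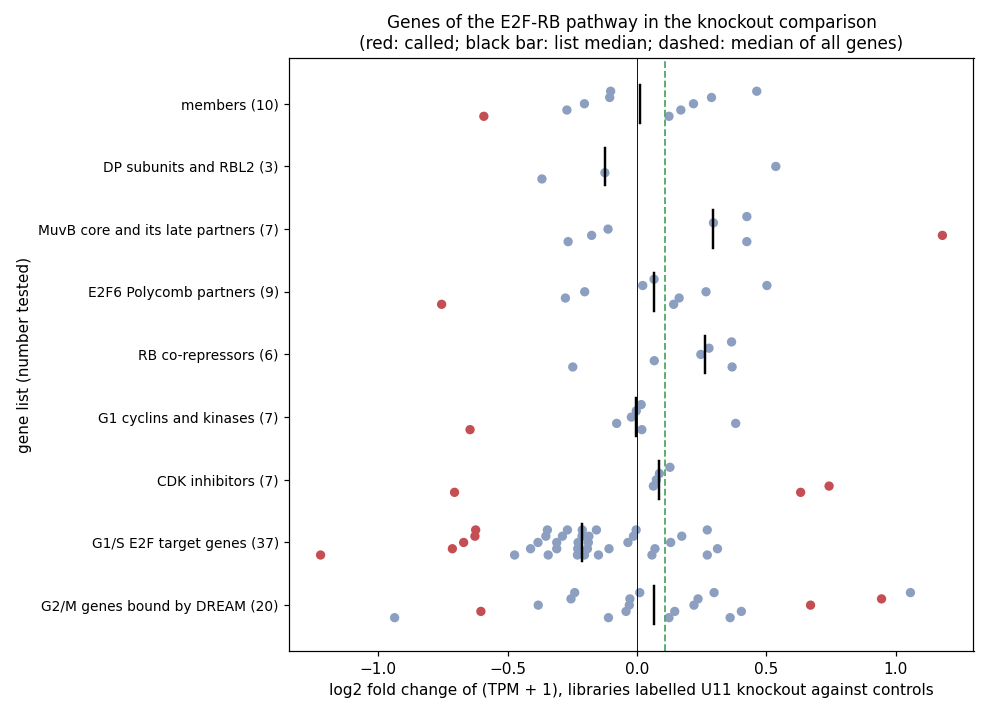
Log2 fold change on the log2(TPM + 1) scale (x axis) of each tested gene in the knockout comparison, 1 point per gene, in the members and the 8 pathway lists, with called genes in red and a black bar at each list's median. The green dashed line is the median of all genes tested (0.11). The G1/S targets have a median of -0.21 and the 5 called among them are all lower.

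For each member, the pathway gene with the most similar pattern was sought among the 96 genes, by the root mean square difference of log2(TPM + 1) over the 12 libraries after centring each comparison on its own mean. Each neighbour was chosen by its distance in these same libraries, so its likeness to the member there is no separate support. E2F8 lay nearest to PLK1 (0.146, beside a median of 0.301 over the 96 genes), which was called lower in the labelled knockouts. PLK1 in line labels 79, 86 and 87 measured 158.0 to 171.6, 181.4 to 187.3 and 200.9 to 215.8 TPM, with the same order as E2F8. RB1 lay nearest to CDKN1B, the inhibitor p27 (0.0847 beside 0.242), whose values were 34.8 to 37.8 TPM in 79, 48.8 to 50.5 TPM in 86 and 36.8 to 37.8 TPM in 87.

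The remaining neighbours were MCM6 for E2F1 (0.0733), KIF20A for E2F2 (0.103), TPX2 for E2F3 (0.0639), TK1 for E2F4 (0.0749), MGA for E2F5 (0.106), KDM5A for E2F6 (0.206), RNF2 for E2F7 (0.0991) and CBX3 for RBL1 (0.0785). E2F1 and E2F3 varied little across libraries, with own root mean square deviations of 0.0551 and 0.0653. MCM6 thus lay farther from E2F1 than a flat line would, so no similar pattern was found for E2F1. TPX2 lay hardly nearer to E2F3 than a flat line, and KDM5A was only a little nearer to E2F6, whose own deviation was 0.236. These distances are descriptions over libraries that share controls and carry no test.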

How the data were processed

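Total RNA was sequenced in 12 libraries of T24 cells. The study's methods give rRNA depletion and paired-end Illumina sequencing, while the labels give polyA RNA. Reads were aligned by the authors (Hisat2, hg38) and abundance was estimated with Stringtie, and the deposited tables hold, for each gene, coverage (mean depth per base), FPKM and TPM. The authors normalized FPKM by length and depth and TPM to one total per library. Read counts were not used here, so the DESeq2 test of the study's methods was not run.

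Groups and line labels came from the sample labels. limma 3.58.1 in R 4.3.3 (lmFit, eBayes with trend) was fitted on log2(TPM + 1) over genes that reached 1 TPM in at least 2 libraries of the comparison. Genes were called at unadjusted P under 0.05 and a fold of at least 1.5, with Benjamini-Hochberg adjustment over all genes tested (two-sided tests). For results by line label, line labels and controls were fitted together as 4 groups. For the overexpression comparison, the 6 libraries formed 1 group, so libraries of the same line label counted as separate replicates. The fit was tested on simulated data that held no differences between line labels, so this did not cover their part in the spread of the overexpression comparison. TPM gives no separate estimate of counting error, so errors describe the spread between libraries, which includes it. Introns came from GENCODE 44 on hg38 and were read with pysam 0.24.0. Gene coordinates are those of the tables.

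The members and gene lists were chosen with earlier results of these data known. The named genes are the members, U11, up to 3 called genes with the largest change per pathway list and comparison, and the pathway gene nearest to each member. One gene that this rule names is not reported here. Alternatives were a pseudocount of 0.1, FPKM, other scalings and filters, protein-coding genes alone, no trend, adjusted P, no fold threshold, blocks, all libraries or all 4 controls, and each library left out. Coverage per gigabase and leaving out line label 79 were added after seeing the data. Promoter and protein sequences were not used here.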

Additional observations from a re-analysis of the deposited data

Results flagged for a closer look

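E2F8 was singled out because its level differed between the line labels by a test of that difference. Of the 10 members it alone was called there, beside 14.6% of all genes tested. Its largest log2 difference between line means was 0.72 (moderated F test in limma, adjusted P = 0.00687). Each line label lay on the same side of the controls in both library batches. Leaving out each library in turn gave 0.66 to 0.78. Without line label 79, whose U11 level went against its label, E2F8 differed between 86 and 87 by 0.48 (adjusted P = 0.0439, limma), short of the fold threshold. Every labelled group held 2 libraries, too few to test whether a library stood apart within its group.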

How the results depend on the processing

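In the knockout comparison, 1236 genes were called higher and 452 lower in the main test, but 773 and 775 under median ratio scaling, with the median of all genes at 0.11 and -0.02. The number of members called there was 1, and 0 by adjusted P or 2 without the fold threshold. Replicate numbers did not pair these libraries (correlation of deviations 0.0244), and with a replicate block 1 member and 1706 genes were called, against 1688. Without the fold threshold, 3 members were called in 79, 4 in 86, 3 in 87, 3 between line labels and 1 in the overexpression comparison. Of all 15768 genes, 3793, 2127, 2803, 4816 and 946 were then called. A pseudocount of 0.1 gave 2 members between line labels, beside 2632 of all genes. Pathway calls in the knockout comparison, 14 of 96, were 9 by adjusted P, 40 without the fold threshold and 8 with all 4 controls. Of all 14356 genes, 984, 4319 and 930 were called under these settings. In the overexpression comparison the pathway calls were 6 without the fold threshold and 16 with all 4 controls, where 1 member was called. Of all 15768 genes, 946 and 3101 were called under these settings. Leaving out both libraries of line label 79, an alternative chosen after seeing the data, gave 0 members between line labels, 1 pathway gene in the overexpression comparison and a reversed E2F4 there (0.01). Leaving out 1 library gave 0 to 1 members in each comparison with controls and 1 to 3 between line labels, where E2F5 and RB1 were also called without 79 replicate 3, and E2F5 without 86 replicate 1. The 1 member called without overexpression control replicate 3 was E2F6. All 4 controls mix library types, and log2 differences then changed sign in the knockout comparison for E2F3 (-0.41), E2F6 (-0.023), E2F7 (-0.061), RB1 (-0.30) and RBL1 (-0.044). They did so in the overexpression comparison for E2F1 (0.53), E2F2 (0.059), E2F3 (0.44), E2F4 (0.55), E2F8 (0.39) and RB1 (0.42). Other reversals were near 0: E2F3 in the knockout comparison (-0.015, median ratio scaling), E2F4 (0.0006, quantile normalization, and 0.023, coverage) and E2F5 (-0.036, coverage) in the overexpression comparison, and in 87 E2F4 (0.008, median ratio scaling, and 0.098, coverage) and E2F5 (0.0066, median ratio scaling, and 0.011, quantile normalization). Without 1 library, sign changed in the overexpression comparison for E2F4 (-0.062 to 0.012), E2F5 (-0.058 to 0.094) and E2F6 (-0.12 to 0.71), in 79 for E2F4 (-0.17 to 0.021) and E2F6 (-0.17 to 0.65), in 86 for E2F4 (-0.13 to 0.20) and E2F6 (-0.022 to 0.80), and in 87 for E2F1 (-0.076 to 0.028), E2F3 (-0.15 to 0.015), E2F4 (-0.052 to 0.026), E2F5 (-0.094 to 0.071) and E2F6 (-0.16 to 0.66). The cause was not tested. With 2 libraries a group, differences under the fold threshold could not be settled for most members.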
